A study of Mus musculus with 58 samples.

Results

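The mesenchymal cells described here are 124 single cells of the mouse embryonic pancreas at E18.5, the last stage of the series, chosen from the 278 kept wells of the live-sorted plate of experiment EP16. A kept well held at least 2000 transcripts and 500 genes, and 4318 wells on 15 plates met this in the whole series. A member had at least 0.1% of its transcripts from the fibrillar collagen genes Col1a1, Col1a2 and Col3a1 together, no Epcam transcript (an epithelial adhesion molecule), and fewer than 3 of the mesothelial genes Wt1, Upk3b, Upk1b, Lrrn4, Gpm6a and Bnc1. The members were thus selected on measured values, and the levels of these genes are given as a description only.

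The mesenchyme of the pancreas is the connective tissue that surrounds the epithelium. It secretes growth factors such as the fibroblast growth factor Fgf10, on which the early epithelium depends, and it lays down the extracellular matrix. Fibroblasts make fibrillar collagens, coat the fibrils with small leucine-rich proteoglycans such as decorin, and build elastic fibres from elastin on a scaffold of microfibrils.

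Embryos came from females expressing MIP-GFP, a transgene that places green fluorescent protein under control of the insulin promoter of the mouse. Dispersed pancreatic cells were sorted into the wells of 384-well plates and profiled by SORT-seq, which counts transcripts of single sorted cells by their molecular identifiers. The members came from the sort of viable cells, which used no reporter gate. The same gate was applied to the live-sorted plates of E12.5 (experiments EP11 and EP18), E13.5 (EP12), E14.5 (EP14) and E15.5 (EP10), and transcripts were summed over the gated cells of each plate. Strain, sex, litter and the number of embryos behind a plate are not given in the labels used here. The p-values therefore measure the spread between these plates only. That spread comes from the plates of E12.5 and from those of E13.5 to E15.5, where differences between the days count as spread. The E18.5 plate adds none and was assumed to vary like the others.

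The gate held 44.6% of the kept wells of the E18.5 plate (124 of 278, Wilson 95% interval 38.9 to 50.5). It held 38.2% on EP11 (134 of 351), 31.5% on EP18 (69 of 219), 19.6% on EP12 (68 of 347), 38.2% on EP14 (122 of 319) and 36.8% on EP10 (106 of 288). Intervals cover counting error only, and the gate selects on levels that changed with stage, so these shares are not compared. The members carried a median of 8883 transcripts and 3306 genes, against medians of 16174 transcripts on EP11 and 6407 on EP18. The sums held 1356126 transcripts at E18.5, 2453284 for EP11 and 554910 for EP18, and between 902582 and 2155958 for the 3 plates of E13.5 to E15.5.

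Plates and wells that stand apart come first. A second E18.5 plate, coded P6-002 and labelled as live cells, held 1 gated well of 301, while Ins1 and Ins2 took at least 1% of the transcripts in 298 of its 301 wells (99%) against 20 of 278 on the plate of the members (7.19%). It went into no sum, so E18.5 rests on 1 plate of 1 experiment, and stage cannot be told apart from experiment. The Y-linked genes Ddx3y, Eif2s3y, Kdm5d and Uty had 0 transcripts on each of the 3 plates of EP16 and between 108 and 291 CPM (the counts-per-million scale) on every other plate. What sets EP16 apart in these genes can therefore not be told apart from stage either.

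Markers of other cell types were counted in each member. Of the 124 members, 11 carried at least 3 of 10 immune markers. Mast cell genes (Cma1, Mcpt4, Hdc, Cpa3, Tpsb2) took at least 0.5% of transcripts in 3 of these wells, neutrophil genes (S100a8, S100a9, Retnlg, Stfa1) in 1 and macrophage genes (Csf1r, C1qb, C1qc, Fcna) in 4. Collagen shares were 0.1% to 0.643% in these 11 wells and 0.586% to 10.8% in the other 113. They go against the mesenchymal label, and both stage comparisons and the clustering were also run without such cells. The comparison with other wells and the cell cycle shares below include them. Endocrine markers are a different matter: at least 3 of 10 were found in 98 members, and Ins2 in 108. Ins2 stood at 384 CPM in the members and 70341 CPM in the 20 insulin-rich wells, so most members held hormone transcripts at a low level, and their source was not tested. No member had 3 or more endothelial or Schwann cell markers. At least 3 mesothelial markers were found in 1 member, as many acinar markers in 4 and as many duct markers in 10. The 7 erythroid genes had 0 transcripts in the members and also in the 154 other kept wells, so their count says nothing about the members. Gated cells of EP14 and EP10 held 5242 and 3527 CPM of them, and the reason for this difference was not tested. Pericyte and smooth muscle markers, which mesenchymal cells can share, reached 3 of 12 in 70 members, in 106 of 134 cells on EP11 and in 15 of 69 on EP18. These counts were not thinned and median depth differed (8883, 16174 and 6407 transcripts in turn), so they are not compared. The summed level of the markers was 849.8, 643 and 601 CPM in turn. Their part in the results was not tested beyond a comparison without cells that held 3 or more.

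**Figure D1:**
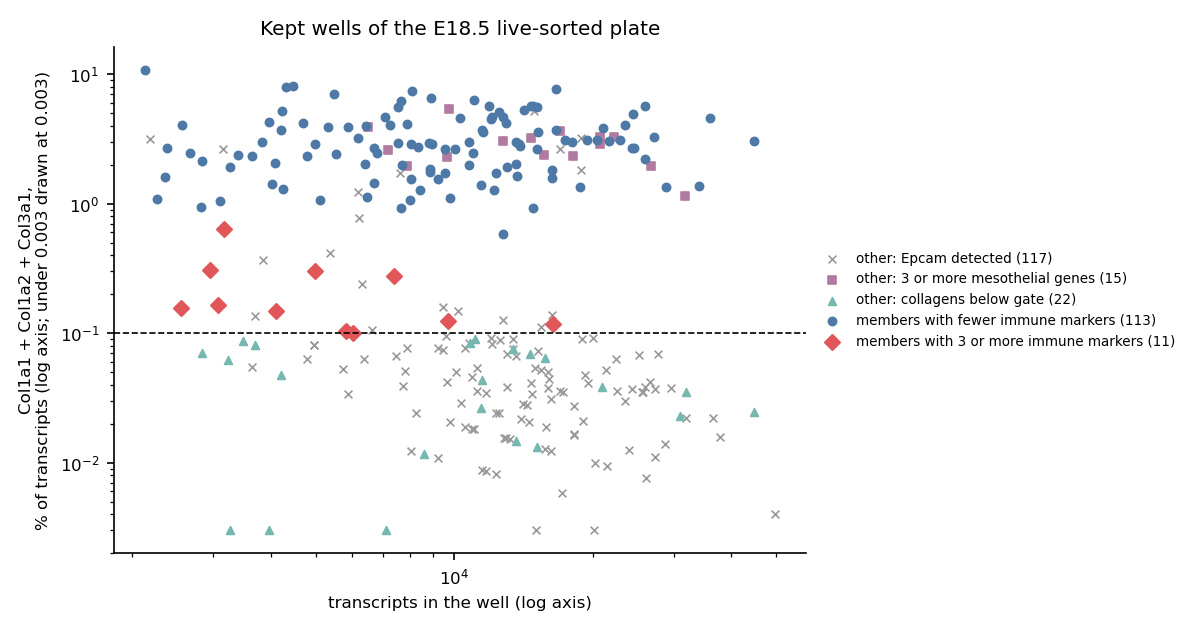
Each point is a kept well of the E18.5 live-sorted plate, with its total transcripts (log axis) against the share of transcripts from Col1a1, Col1a2 and Col3a1 (log axis), and the dashed line marks the gate at 0.1%. The 11 members with immune markers (diamonds) lie between 0.1% and 0.643%, and the other 113 members lie from 0.586% to 10.8%.

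In the 113 members without immune markers, decorin (Dcn) stood at 5859 CPM, lumican (Lum) at 1156 CPM and the platelet-derived growth factor receptor gene Pdgfra at 325 CPM. In the 11 with immune markers the same genes stood at 243, 30.3 and 0 CPM. Over all 124 members Dcn was detected in 121, Lum in 106 and Pdgfra in 98. With each cell thinned to 2000 transcripts, Dcn was found in 92.7% and Lum in 73.4%. In the 20 insulin-rich wells, which should lack both and were deeper (median 15618 transcripts), Dcn was found in 65% and Lum in 25%, at 85.8 and 19.97 CPM against 5585 and 1101 CPM in the members. The collagen share had a median of 2.70%, with 0.925% at the 10th and 5.63% at the 90th percentile. Just inside the gate lay 0.1% and 0.104%, and just outside lay 0.0906% and 0.0865%. Of the 154 kept wells left out, 117 had Epcam, 15 others had 3 or more mesothelial genes and 22 others had collagens below the gate. All 15 mesothelial wells lay above the collagen gate, from 1.16% to 5.37%.

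Genes higher in the summed members than in those 154 wells, ranked by ratio and given without a test, were led by asporin (Aspn, 387 against 5.25 CPM) and dermatopontin (Dpt, 657 against 12.8). Pi15, Clec3b, Postn, Penk, Nrk and Col5a3 followed. The mesenchymal transcription factor Prrx1 (274 against 7.89 CPM), Lum, Mfap4 and Thbs2 completed the first 12. Lowest by ratio were epithelial and endocrine genes, namely Krt18 (3.70 against 492 CPM), Ambp, Cldn3, Neurog3, Pax6 and Prom1.

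Members differed among themselves, which is described here for the 113 cells without immune markers, as clusters that carry no cell type name. Cluster 1 held 17 cells led by mitotic genes. Its summed cells had 306 CPM of Nusap1 and 697 CPM of Mki67, a proliferation marker that stood at 5.93 to 19.5 CPM in the other clusters. Cluster 2 held 29 cells led by Pcdh20, Tmeff2, Efemp1 and Dpp4. Dpp4 stood at 210 CPM there and at 122.5, 10.4 and 26.6 CPM in clusters 1, 3 and 4. The surface antigen gene Ly6a stood at 390 CPM there and at 277, 34.7 and 31.6 CPM in the same clusters. Cluster 1 thus had the next highest level of both.

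Cluster 3 held 28 cells led by Actg2, Tnc, Kcnk3 and Tagln. Tagln, an actin-binding protein of contractile cells, stood at 344 CPM there and at 8.91 to 40.9 CPM elsewhere, but in 9 of the 28 cells only. Elastin (Eln) stood at 2612 CPM in cluster 3 and at 218 to 617 CPM in the other clusters. Cluster 4 held 39 cells led by Spry4, Serpine2, Tbx2 and S1pr3. The T-box factor gene Tbx2 was found in 31 of its cells at 192 CPM, against 26.7 to 72.9 CPM in the others, and the collagens were lowest there (median share 1.77%, against 4.54% in cluster 2). Pdgfra differed little over the 4 clusters, from 269 to 378 CPM.

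**Figure D2:**
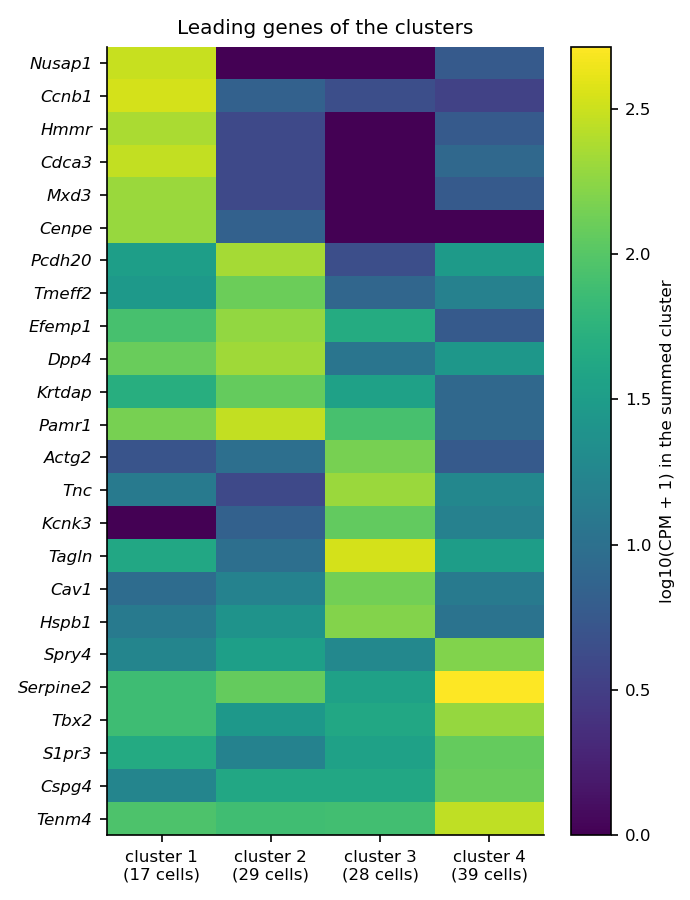
Rows are the 6 genes leading each cluster of the 113 members without immune markers, and colour gives log10(CPM + 1) in the summed cluster. Each block is brightest in its own cluster because these genes were chosen for it, with Nusap1 at 306 CPM in cluster 1 as an example.

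Against E12.5, summed gated cells at E18.5 had higher levels of genes from all 6 matrix lists and of genes known from adult fibroblasts. The chromatin protein gene Hmga2 was lower. Of 11744 genes tested across all plates, 510 were higher (4.34% of the genes tested) and 92 lower (0.783%) at an adjusted p under 0.05 (edgeR's quasi-likelihood test). The median log2 difference over all genes tested was −0.07. The fit used sums over cells, so by itself it does not separate a change in the share of expressing cells from a change in RNA per cell. Of the 510 higher genes, 480 had a level at E18.5 above every earlier plate. For 468 the mean of E13.5 to E15.5 lay between the levels of E12.5 and E18.5. The 510 genes were selected for a higher level at E18.5 than at E12.5, which favours both counts. No such share was taken over all genes tested. Of the same 510 genes, 102 stood higher in the other kept wells of the plate than in the members. Without cells with 3 or more immune markers on any plate (11 at E18.5, 2 on EP10 and 1 each on EP14 and EP18), 478 were higher and 89 lower. Calls depended on the plates: without EP11, EP14 or EP18 the total of 602 became 240, 384 and 399.

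Fibril-coating proteoglycans moved most among the matrix lists. Of 8 small leucine-rich proteoglycans tested, 6 rose (Dcn, Lum, Bgn, Ogn, Aspn and Prelp) and none fell, with a list median of 5.92 on the log2 scale. Dcn (chromosome 10, 97479609 to 97518143 in GRCm38) stood at 84.6 CPM on EP11 and 109 on EP18, at 541, 1278 and 1254 CPM on EP12, EP14 and EP10, and at 5585 CPM at E18.5. The E18.5 value lay above all 5 earlier plates. The log2 difference from E12.5 was 6.01 ± 0.616 (SE; adjusted p = 0.0017). Lum followed the same order, with 23.8 and 18.1 CPM at E12.5, 252, 487 and 471 CPM at the middle stages and 1101 CPM at E18.5 (log2 difference 5.84 ± 0.524; adjusted p = 0.00157). Osteoglycin (Ogn) rose from 4.09 and 7.21 CPM to 514 CPM and Aspn from 3.68 and 5.43 to 387 CPM. The call of Prelp was lost without EP11 (adjusted p = 0.0634), and the other 5 kept theirs with any 1 plate left out.

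The collagen genes outside the gate rose in 10 of 22 tested, and 1 fell (list median 2.25). The 3 collagen VI genes, whose chains form beaded filaments, stood close together: Col6a2 rose from 165 and 149 CPM at E12.5 to 2659 CPM (log2 difference 4.23 ± 0.425; adjusted p = 0.0017), Col6a1 by 4.10 and Col6a3 by 3.75 on the log2 scale. Col5a3, a minor fibrillar chain, had 3 transcripts in the summed E12.5 cells and 534 at E18.5, a ratio of 395 with a counting interval of 134 to 1921. Col14a1, which decorates fibrils, was level through E15.5 (83.2 to 125 CPM) and stood at 798 CPM at E18.5 (log2 difference 2.98 ± 0.364; adjusted p = 0.00343). Col8a1 fell from 86.1 and 49.0 CPM to 5.21 CPM. Col12a1 and Col15a1 were not called without EP11 (adjusted p = 0.0768 and 0.0637), nor Col12a1 without EP18 (0.054). Of the 10 collagen genes that rose, 6 stayed called without EP11. For reference, the gate genes themselves stood at 1184 and 1519 CPM (Col1a1), 1836 and 1719 CPM (Col1a2) and 1395 and 2209 CPM (Col3a1) at E12.5, and at 10279, 11424 and 9179 CPM at E18.5.

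Genes of collagen folding and processing rose in 8 of 16 tested and none fell (list median 1.75). The prolyl hydroxylase genes P4ha1 (36.8 and 23.5 to 226 CPM) and P4ha2 (33.5 and 21.7 to 242 CPM) had log2 differences of 3.01 ± 0.422 and 3.24 ± 0.487. The lysyl hydroxylase gene Plod2 went from 44.6 and 47.0 to 312 CPM, and the procollagen processing enhancer Pcolce from 94.6 and 81.3 to 649 CPM. Adjusted p-values of these 4 genes were 0.00481 to 0.00692. Each stayed called with any 1 plate left out, but the other 4 of the 8 did not. Sparc lost the call without EP14 (adjusted p = 0.0514), Lepre1 and Bmp1 without EP11, EP14 or EP18, and Crtap without any of EP11, EP12, EP14 and EP18.

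Elastic fibre and microfibril genes rose in 12 of 19 tested and none fell (list median 2.86). Eln (chromosome 5, 134702593 to 134747323) stood at 17.6 and 16.2 CPM at E12.5, 86.3, 124 and 137 CPM at the middle stages and 880 CPM at E18.5. This is a log2 difference of 5.85 ± 0.457 (adjusted p = 0.000991), and the E18.5 value was clear of every earlier plate. The microfibril gene Mfap5 (chromosome 6, 122505845 to 122529290) stayed at 3.61 to 12.57 CPM through E15.5 and stood at 695 CPM at E18.5 (log2 difference 7.72 ± 0.581; adjusted p = 0.000991). Lysyl oxidase (Lox), which crosslinks both fibre systems, was called at 2.04 and 5.41 against 83.9 CPM, but not without EP11 (adjusted p = 0.165) or EP18 (0.0727). Efemp1 was not called without EP11 (0.0661) and stood at 81.2 CPM in the other wells of the plate, above its 72.3 CPM in the members. Fbn2, Fbln1, Fbln5 and Loxl1 were not called without EP11 either (0.0971, 0.0774, 0.0677 and 0.0587), so 6 of the 12 stayed called.

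Among other matrix glycoproteins, 11 of 21 tested rose and none fell (list median 2.47). Periostin (Postn) went from 64.5 and 98.3 CPM through 120, 385 and 356 CPM to 2720 CPM (log2 difference 5.21 ± 0.688; adjusted p = 0.0043). Tenascin X (Tnxb) was at 0 to 2.73 CPM on all 5 earlier plates and at 224 CPM at E18.5 (log2 difference 7.18 ± 0.671; adjusted p = 0.00157). Matn2 rose from 5.72 and 12.7 to 341 CPM. Tnc, which led cluster 3, was not called against E12.5 (33.3 and 19.95 against 50.5 CPM). Of the 16 matrix proteases and inhibitors tested, 7 rose and none fell, among them Adamts5, a proteoglycan-cleaving protease (20.1 and 49.0 to 557 CPM), Mmp23 (7.36 and 12.62 to 150 CPM) and Htra1. The cysteine protease gene Ctsk, at 8.17 and 5.41 against 89.0 CPM, was not called without EP11 (adjusted p = 0.0516), and Adamts1 not without EP11, EP12, EP14 or EP18, which left 5 of the 7 proteases and inhibitors. Of the 11 glycoprotein genes, 5 stayed called with any 1 plate left out. Lama4 (0.0512), Hspg2 (0.0522), Lamb1 (0.0819), Spon2 (0.0948) and Dpt (0.0741), which is in 2 lists, lost the call without EP11, and Lama2 without EP14 (0.0698) or EP18 (0.0748).

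**Figure D3:**
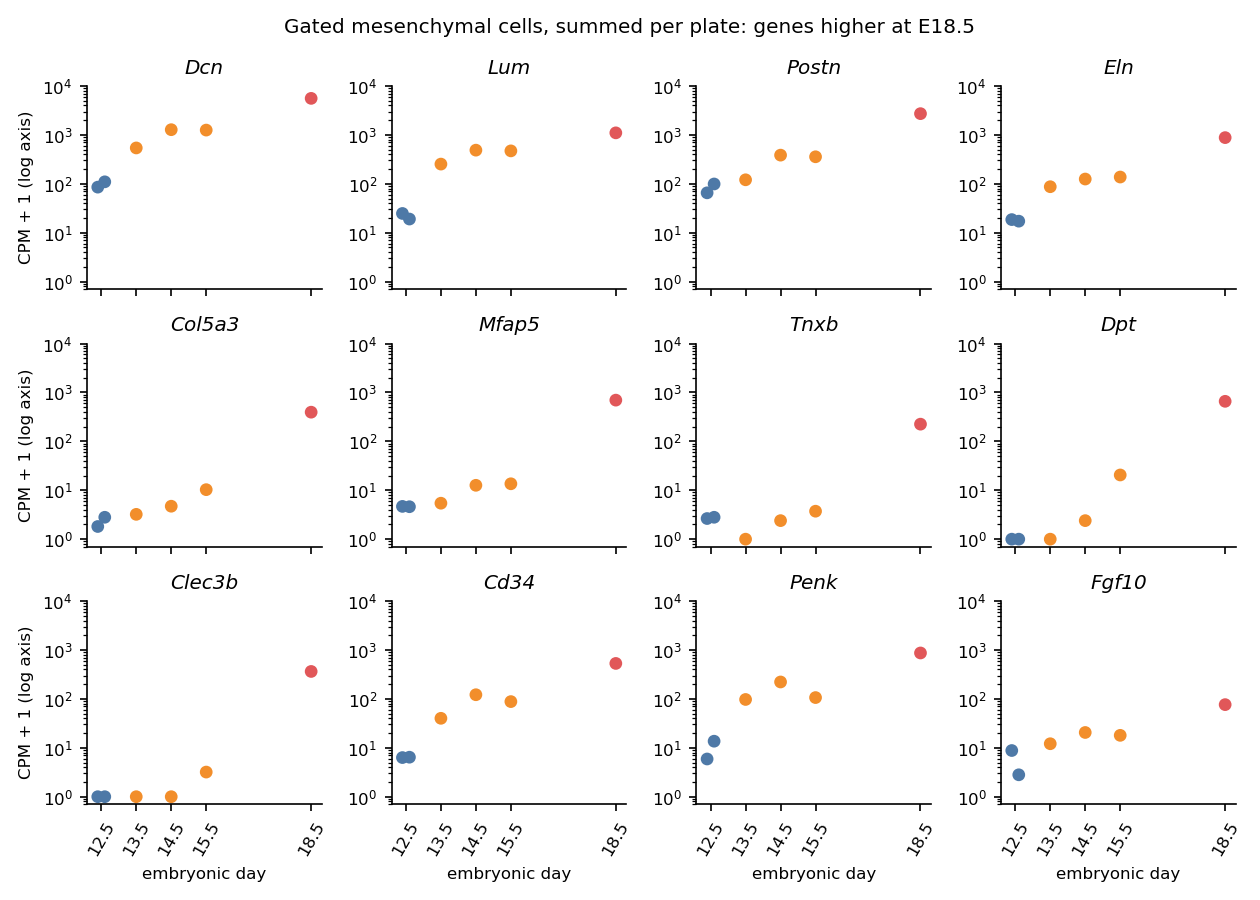
Each panel gives CPM + 1 (log axis) of 1 gene in the summed gated cells of a plate against embryonic day, with E12.5 in blue, E13.5 to E15.5 in orange and E18.5 in red. Every gene shown is highest at E18.5, such as Dcn at 5585 CPM, and the panels were picked after the values were seen.

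Genes known from adult fibroblasts rose in 14 of 16 tested and none fell, with a list median of 6.92, or 6.26 with the 4 genes absent at E12.5 set at their lower bound. Dermatopontin (Dpt, chromosome 1, 164796644 to 164824266), a fibril-binding matrix protein, had 0 transcripts on EP11, EP18 and EP12, 1.39 CPM on EP14, 19.5 CPM on EP10 and 657 CPM at E18.5. That is at least 660-fold higher than E12.5 against a floor of 3 transcripts over both plates (adjusted p = 0.00991, and 0.0741 without EP11). Clec3b, which encodes tetranectin, had 0 transcripts on the plates of E12.5 to E14.5, 2.19 CPM on EP10 and 362 CPM at E18.5. It was at least 364-fold higher (adjusted p = 0.00187).

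The stem and progenitor antigen Cd34 rose from 5.31 and 5.42 CPM to 529 CPM (log2 difference 6.79 ± 0.672; adjusted p = 0.0017), with 39.1 to 121 CPM in between. The opioid precursor Penk stood at 4.90 and 12.63 CPM at E12.5 and 866 CPM at E18.5. The ferritin receptor gene Scara5, absent at E12.5, stood at 88.0 CPM, at least 88.0-fold higher. Igfbp6 had 2 transcripts at E12.5 and 130 at E18.5, a ratio of 144 with a counting interval of 39.1 to 1203. Ly6c1, absent at E12.5, stood at 21.6 CPM and was not called without EP11, EP14 or EP18 (adjusted p = 0.125, 0.0787 and 0.0576). Without EP11, 8 of the 14 stayed called, and Pi16, Cygb and Fbln1 were among those lost (0.112, 0.0719 and 0.0774). The 2 tested members of the list that were not called were Smoc2 and Dpp4. Some genes of this list, among them Dpt, Fbln1 and C3, are counted in another list as well.

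Complement and chemokine genes rose in 10 of 16 tested and none fell (list median 6.24, or 4.98 with the 4 genes absent at E12.5 at their bound). C1s and C1ra, proteases that start the classical complement pathway, rose from 1.23 and 3.61 to 285 CPM and from 0.817 and 3.61 to 169 CPM (log2 differences 7.46 ± 0.659 and 6.99 ± 0.64; adjusted p = 0.00157 for both). C1ra and C1rb are near copies, so how their transcripts were divided is uncertain. The complement gene C3 had 1 transcript at E12.5 and 110 at E18.5 (ratio 244, counting interval 42.9 to 9724). C3 was found in 16 of the 124 members. In clusters 1 and 4 it stood at 173 and 117 CPM, from 2 cells each. In clusters 2 and 3 it stood at 11.9 and 20.9 CPM, from 3 cells each. The ratio thus leans on few cells, and the counting interval does not cover the spread between cells. C3 was higher in the other wells of the plate (164 CPM) than in the members (81.4 CPM). Without EP11, 4 of the 10 stayed called (C1s, C1ra, Serping1 and Il33), and C3, C1rb, Ccl7, Il6, Cxcl1 and Ccl11 did not (adjusted p = 0.0569, 0.0853, 0.0931, 0.12, 0.152 and 0.107). Without EP18 the calls of Il6 (0.0575), Cxcl1 (0.138) and Ccl11 (0.0856) were lost. Ccl7 was found in 6.45% of members and Il6 in 9.68%.

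Lipid handling genes rose in 6 of 11 tested and none fell (list median 3.24), but only Lpl stayed called without EP11. Without immune-marked cells 5 were called. The lipase gene Lpl went from 40.5 and 50.7 CPM through 115, 149 and 258 CPM to 686 CPM (log2 difference 4.09 ± 0.538; adjusted p = 0.00429). Fabp4, absent at E12.5, was not called without EP11 (adjusted p = 0.106), and neither were Cebpd (0.079), Scd1 (0.0888), Apoe (0.0694) and Cebpb (0.0823). Cebpd was not called without EP18 either (0.0524). Fabp4 stood at 60.8 CPM in the other wells and 38.8 CPM in the members. Apoe, an apolipoprotein gene that macrophages also express, stood at 8214 CPM in a cluster of 7 members, all of them immune-marked, and at 40.5 to 162 CPM in the other clusters of all members.

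Of 25 FGF and BMP pathway genes tested, 5 rose (Fgf7, Fgf10, Fgf18, Gdf10 and Spry2) and 1 fell (Id1), with a list median of 0.27. Fgf10 (chromosome 13, 118669791 to 118792115), whose product signals to the epithelium, stood at 7.79 and 1.80 CPM at E12.5, 11.1, 19.6 and 17.0 CPM at the middle stages and 75.2 CPM at E18.5 (log2 difference 3.83 ± 0.601; adjusted p = 0.00813). It was found in 29.8% of members. Fgf18 went from 4.90 and 14.46 CPM to 125 CPM (log2 difference 4.14 ± 0.582; adjusted p = 0.00526). Fgf7, which shares its receptor with Fgf10, had 1 transcript at E12.5 and 50 at E18.5 (ratio 111, counting interval 19.01 to 4467), and was not called without EP11 (0.073). Gdf10 was not called without EP18 (0.0657), Id1 not without EP11, EP12 or EP14 (0.0937, 0.063 and 0.0942), and Spry2 not without the same 3 plates (0.142, 0.0624 and 0.108).

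Of 11 genes of the insulin-like growth factor system, 3 binding proteins rose and none fell (list median 1.03). Igfbp7 stood at 4.10 and 12.7 CPM at E12.5 and 529 CPM at E18.5, and was not called without EP11 (adjusted p = 0.0515). Igfbp3 went from 110 and 156 to 517 CPM and was not called without EP11, EP14 or EP18 (0.111, 0.0527 and 0.055). The ligand gene Igf2 stood at 4787 and 1822 CPM at E12.5 and 5965 CPM at E18.5 and was not called (log2 difference 1.03 ± 0.54; adjusted p = 0.311).

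In the TGF-beta and activin list 3 of 14 rose (Tgfb3, Tgfbr2 and Fstl1) and none fell, with a list median of 0.69. Fstl1, a secreted follistatin-like protein, went from 722 and 683 to 3668 CPM (log2 difference 2.53 ± 0.406; adjusted p = 0.00891). Tgfb3 was not called without any of EP11, EP12, EP14 and EP18 (0.123, 0.0691, 0.112 and 0.0657), nor Tgfbr2 without EP11, EP12 or EP14 (0.0911, 0.0562 and 0.0862). In the Wnt list, 1 of 18 rose (Dkk3) and 1 fell (Lef1, 36.4 and 41.5 CPM against 0, at least 16.8-fold lower). Both lost the call without EP11 (0.0778 and 0.0823), EP14 (0.0707 and 0.0593) and EP18 (0.0625 and 0.0854). A count of 1 higher gene of 18 is near the 4.34% called higher over all genes tested. The retinoid list had 2 of 13 higher, the retinoic acid-making enzyme Aldh1a2 and the retinaldehyde reductase Dhrs3, neither of them called without EP11 (0.0788 and 0.14), and Aldh1a2 not without EP14 (0.0728) or EP18 (0.0743). Its median was 0.29.

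None of 8 hedgehog pathway genes was called (edgeR; list median 0.44), with 2 higher at an unadjusted p under 0.05, and DESeq2 called 1 (Cdon). Gas1, a hedgehog co-receptor, stood at 547 and 451 CPM at E12.5 and 616 CPM at E18.5, and Cdon, another, at 36.0 and 65.1 against 217 CPM (adjusted p = 0.0772). Contractile genes were not called either, at 0 of 15 by edgeR (list median 1.39), with 7 higher and 1 lower at an unadjusted p under 0.05 and 0 called by DESeq2. Cald1, which binds actin, stood at 430 and 515 CPM at E12.5 and 296 CPM at E18.5, and Tpm1 at 268 and 282 against 241 CPM. A p that misses the threshold does not show that these levels were equal.

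**Figure D4:**
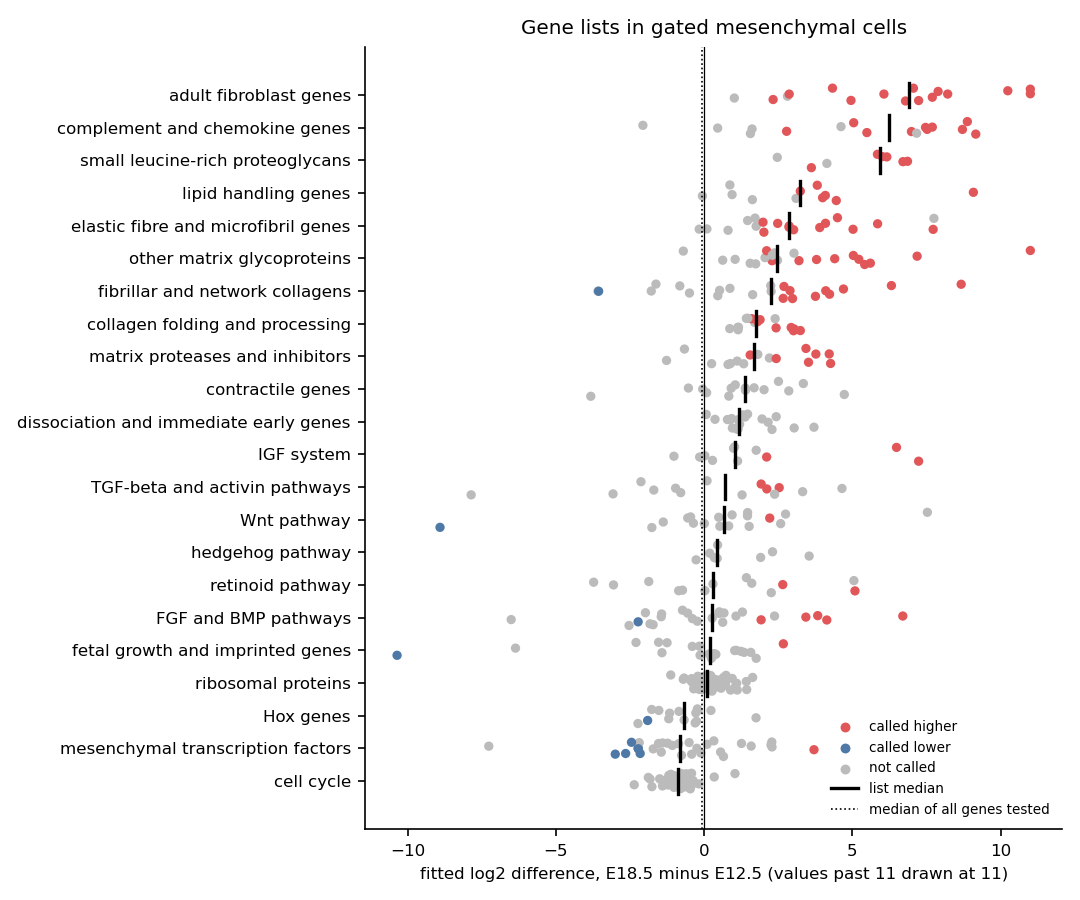
Each point is a gene of a fixed list at its fitted log2 difference, E18.5 minus E12.5, in red where called higher, blue where called lower and grey where not called, with a bar at the list's median. Among the lists drawn, which leave out the Y-linked genes, adult fibroblast genes stand highest, with a median of 6.92, and the cell cycle list lowest, with −0.88, against −0.07 over all genes tested (dotted line).

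Among 30 mesenchymal transcription factors tested, 6 fell, 1 rose and 23 were not called, with a list median of −0.81, and none of the 7 calls held without EP11. Nr2f1, an orphan nuclear receptor, fell from 178 and 150 CPM to 18.48 CPM (log2 difference −3.0 ± 0.552; adjusted p = 0.0158). Meis2, a homeodomain factor, went from 573 and 346 through 274, 214 and 167 to 74.8 CPM, and Tlx1, known from spleen development, from 57.2 and 34.4 to 6.65 CPM. Tbx3, Isl1 and Nr2f2, named after their values were seen, were the other 3. Ebf2 rose from 8.18 and 12.7 to 112 CPM. Adjusted p-values without EP11 were 0.0556 for Nr2f1, 0.0625 for Meis2, 0.0756 for Tlx1, 0.0543 for Tbx3, 0.0637 for Isl1, 0.0634 for Nr2f2 and 0.113 for Ebf2. Without EP14 the call was lost for Meis2 (0.0673), Tlx1 (0.0654), Tbx3 (0.058), Isl1 (0.0655) and Nr2f2 (0.109), and without EP18 for Nr2f2 (0.0632) and Ebf2 (0.0551). Of 15 Hox genes tested only Hoxb5 was called, lower at 78.0 and 109 against 22.2 CPM (adjusted p = 0.0494). That call was lost without EP11, EP12, EP14 or EP18 (0.0516, 0.0717, 0.108 and 0.0933).

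Among genes of at least 100 CPM at E12.5, the largest fall was that of Hmga2 (chromosome 10, 120361275 to 120476469), a chromatin protein of embryonic and proliferating cells. It stood at 2691 and 1829 CPM at E12.5, at 777 CPM on EP12, 185 on EP14 and 107 on EP10, and at 1.48 CPM at E18.5, where 2 transcripts were counted. The ratio of E12.5 to E18.5 was 1717, with a counting interval of 475 to 14183 (adjusted p = 0.0108, and at most 0.0459 with any 1 plate left out). No other gene of the fetal growth and imprinted list fell, and 1 of its 20, the imprinted growth suppressor Ndn, rose (164 and 162 to 937 CPM; adjusted p = 0.0103, and 0.0527 without EP11). That count of higher genes is near the 4.34% called higher over all genes tested.

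The other large falls followed a like order of plates. Syt6, a synaptotagmin gene, went from 158 and 183 CPM through 64.6, 34.5 and 30.2 to 2.95 CPM (log2 difference −5.68 ± 0.744; adjusted p = 0.00428). Kif26b had 345 transcripts at E12.5 and 2 at E18.5, a ratio of 77.8 (counting interval 21.4 to 645). Lama1, a laminin chain of embryonic basement membranes, had 411 and 3 (ratio 61.8, interval 20.99 to 301). Bex2 had 311 and 3 (ratio 46.7, interval 15.8 to 228). Slitrk5 went from 131 and 156 to 7.40 CPM, Prtg from 162 and 99.5 to 8.12 CPM and Tanc1 from 197 and 219 to 16.3 CPM. Tac2, which encodes a tachykinin, Cd24a and the transcription factor gene Bcl11a were not called without EP11 (adjusted p = 0.0564, 0.06 and 0.0577), and Tac2 and Cd24a not without EP18 (0.0551 and 0.052). The gene model Gm1821_2 is 1 of several copies in the table and is uncertain, and it was not called without EP14 (0.0554) or EP18 (0.0727).

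**Figure D5:**
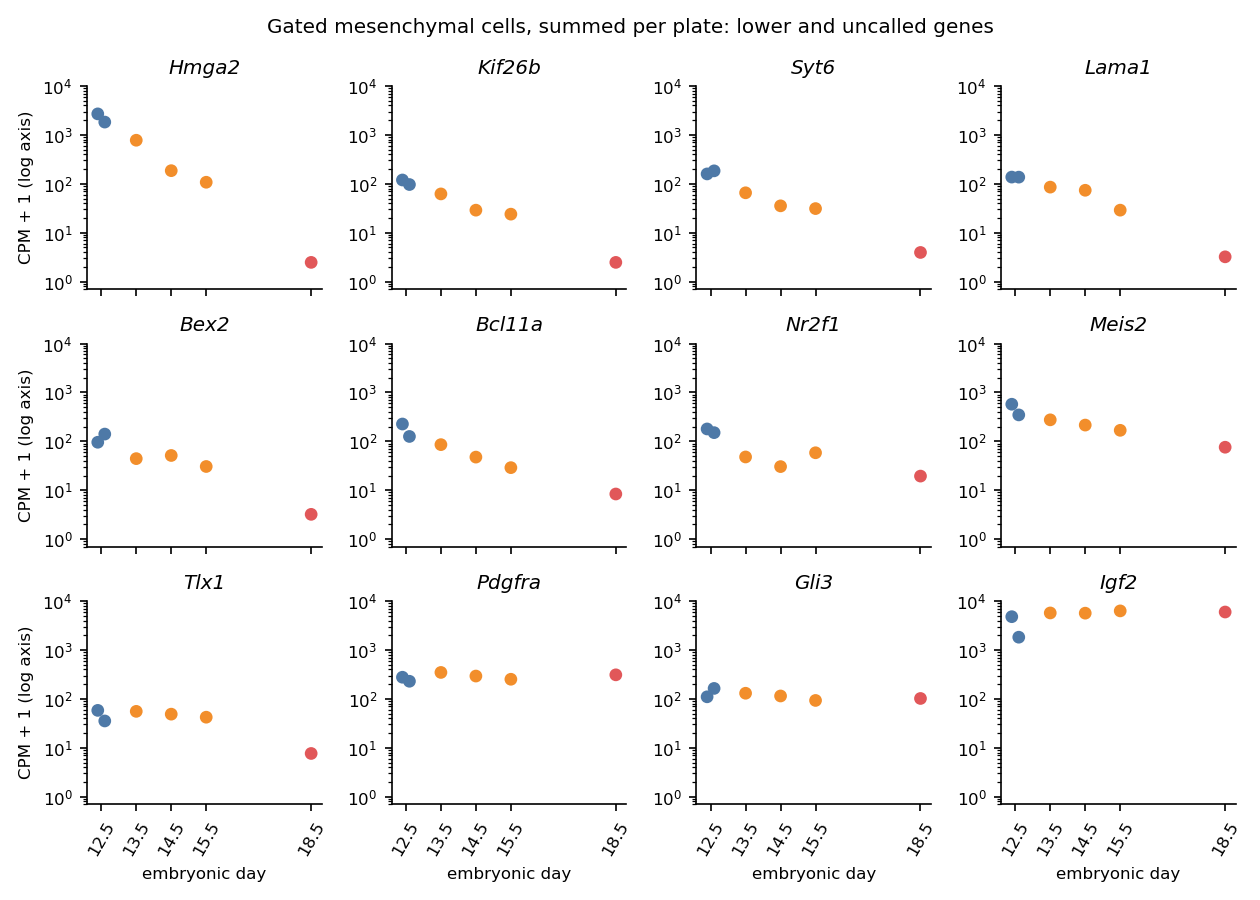
Each panel gives CPM + 1 (log axis) of 1 gene in the summed gated cells of a plate against embryonic day, with E12.5 in blue, E13.5 to E15.5 in orange and E18.5 in red. Hmga2 goes from 2691 and 1829 CPM to 1.48 CPM, while Pdgfra (228 to 346 CPM), Gli3 and Igf2 in the last 3 panels were not called.

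Among genes of at least 100 CPM at E18.5, the largest rises against E12.5 included 4 mast cell genes. Tpsb2, Cma1, Cpa3 and Mcpt4 stood at 574, 510, 538 and 180 CPM at E18.5 and had 0 transcripts at E12.5. Without the 11 immune-marked cells these levels were 51.9, 37.99, 51.9 and 8.53 CPM, and the first 3 were higher, at 980, 1091 and 1098 CPM, in the other wells of the plate. Sst, the somatostatin gene, stood at 277 CPM in the members and 3232 CPM in the other wells. Cpa3 was not called without EP11 (adjusted p = 0.0606) or without the immune-marked cells (0.0572). The rest of the 12 largest rises above that level were Dpt, Clec3b, Col5a3, Gpr133, Abca8a, Nov and Agtr2. Agtr2, an angiotensin receptor, stood at 1.23 and 7.24 CPM at E12.5, at 88.3, 248 and 321 CPM later and at 1028 CPM at E18.5 (log2 difference 8.72 ± 0.987; adjusted p = 0.00252). Nov, a matricellular protein gene, had 1 transcript at E12.5 and 459 at E18.5 (ratio 1018, counting interval 182 to 40302). Gpr133 and Abca8a, absent at E12.5, were at least 147-fold and 101-fold higher, and Abca8a was not called without EP11 (0.0527). Without the immune-marked cells Ly6a, Mfap5, S100a16 and Cd55 took the 4 vacant places.

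No cell cycle gene was called, at 0 of 45 tested (edgeR; list median −0.88), while 10 were lower at an unadjusted p under 0.05 and DESeq2 called 1 (Plk1). After thinning to 2000 transcripts, 24 of 124 members (19.4%, Wilson interval 13.4 to 27.2) held 10 or more transcripts of this list, against 39.6% on EP11, 55.1% on EP18, 38.2% on EP12, 23.8% on EP14 and 37.7% on EP10. The E18.5 share was the lowest, and its interval overlapped that of EP14 (17.1 to 32.1). Such intervals cover counting error over cells and not the spread between plates. The plates of E12.5 alone differed (39.6% and 55.1%), and the shares were not tested. Neither ribosomal protein genes (0 of 78, list median 0.11) nor genes induced by tissue dissociation such as Fos and Jun (0 of 20, list median 1.17) were called by edgeR. At an unadjusted p under 0.05, 4 and 7 were higher in turn, and DESeq2 called 1 (Rps10) and 2 (Fosb and Klf4). Fos stood at 1313 and 1084 CPM at E12.5 and 2393 CPM at E18.5, with 290 to 2306 CPM in between.

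Against the 3 plates of E13.5 to E15.5, which share the E18.5 plate with the comparison above, 229 of 11744 genes were higher (1.95% of the genes tested) and 23 lower (0.196%). The median over all genes was −0.05. Without EP14, the total of 252 was 56, and without EP12 it was 165. Adult fibroblast genes again had 14 of 16 higher (list median 4.66), elastic fibre and microfibril genes 7 of 19 (1.79), other matrix glycoproteins 9 of 21 (2.05) and complement and chemokine genes 6 of 16 (3.27). Small leucine-rich proteoglycans had 3 of 8 higher (1.91) and collagens 4 higher and 2 lower of 22 (1.15). Collagen folding and processing genes had 2 of 16 higher (0.90), and matrix proteases and inhibitors 2 of 16 (0.40). Without EP14, 7 of the 14 adult fibroblast genes, 3 of the 7 elastic fibre genes, 2 of the 9 glycoproteins, 3 of the 6 complement and chemokine genes and 2 of the 4 higher collagens stayed called. No proteoglycan, collagen folding and processing gene or lower collagen did, and 1 of the 2 proteases did.

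Eln was higher by a log2 difference of 3.10 (adjusted p = 0.00436), Mfap5 by 6.28 (0.00109), Tnxb by 7.23 (0.00109) and Col5a3 by 6.34 (0.0013), all 4 with any 1 plate left out. Dcn was higher by 2.63 (0.0307), but not called without EP14 (0.113). Lum, at 1.63, was not called (0.0985). Among genes of at least 100 CPM at E18.5, Clec3b, Ly6a and Anxa1 were the leading rises outside the mast cell genes. Anxa1, which encodes annexin A1, stood at 0.465 to 1.64 CPM on the 3 plates and at 300 CPM at E18.5 (log2 difference 8.26; adjusted p = 0.00109), and Ly6a had 3 transcripts there and 233 at E18.5.

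Tnc was called in this comparison (5.55, 6.05 and 4.38 CPM against 50.5 CPM; log2 difference 3.43, adjusted p = 0.0086) with E12.5 levels of 33.3 and 19.95 CPM. Among genes with a mean of at least 100 CPM at E13.5 to E15.5, the largest falls besides the Y-linked Ddx3y were Hmga2, Col26a1, Tmem200a, Sh2d3c and Amot. Below that level other genes were called lower, among them the Y-linked Eif2s3y (at least 21.5-fold), Lama1 and Kif26b. Tmem200a stood at 188, 119 and 122 CPM against 11.9 CPM (log2 difference −3.39; adjusted p = 0.0142). Col26a1 stood at 217, 247 and 156 CPM against 17.0 CPM, with 79.2 and 34.3 CPM at E12.5. Without EP14 the calls of Hmga2, Col26a1, Sh2d3c and Amot were lost (0.0694, 0.0694, 0.0582 and 0.163), that of Hmga2 also without EP11 (0.0759) or EP18 (0.0752), and that of Amot without EP11, EP12 or EP18 (0.0532, 0.0963 and 0.0555).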

How the data were processed

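The authors deposited expected counts, in which transcript numbers were estimated from molecular identifiers for every gene in each well without depth scaling. Use of BWA, Seurat and mm10 is stated without versions per the submitters' processing notes. Of the table's columns, 5760 wells on 15 plates matched libraries in the labels and 1536 did not and were not used. EP11 and EP14 filled 384 wells though 3 libraries are listed for each.

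Spike-ins (89 of 19788 rows) were left out. Doublets were not called, since the sorter placed 1 cell in a well. Rounded counts were summed over gated cells per live plate (at least 10 cells) and tested with edgeR 4.0.16 in R 4.3.3: quasi-likelihood test over windows E12.5, E13.5 to E15.5 and E18.5, TMM, filterByExpr, Benjamini-Hochberg over all genes without gate genes, threshold 0.05. The E18.5 plate was assumed to vary like the others. The SE is the log2 difference divided by the root of F. Differences of genes with at most 3 transcripts in a group are given as ratios of summed counts, or bounds against 3. Scanpy 1.11.5 clustered members (2000 variable genes, 15 components, 10 neighbours, Leiden resolution 0.5). Data were simulated for the E12.5 comparison with the same mean of a gene on all plates, the fitted dispersion and no experiment effect. Changes were put into genes above 20 CPM. Of these, edgeR recovered 38% of 4-fold rises, 14% of 4-fold falls and 0% of 2-fold changes, so smaller changes are mostly missed. It called 5 of 11064 unchanged genes, which does not measure false calls in the real data, where stage and experiment coincide at E18.5. Gene positions come from GENCODE M21.

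Members and lists were chosen with earlier results of these data known. Named genes were up to 4 called genes per list (20 CPM or more, largest difference), else its 2 highest, and the 12 (E12.5) or 6 (E13.5 to E15.5) largest changes each way from 100 CPM. Other genes were named after their values were seen. Alternatives covered scaling, filter, stage terms, tool, gates, depth and plates.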

Additional observations from a re-analysis of the deposited data

Results flagged for a closer look

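Wells of MIP-GFP plates enter no comparison above. On the MIP-GFP plate of EP10 (E15.5), 8 of 358 kept wells (2.235%, Wilson interval 1.14 to 4.35) passed the mesenchymal gate, where the MIP-GFP plates of EP11, EP12, EP16 and EP18 had none. Collagen shares in these 8 wells were 0.796% to 2.69%. On the MIP-GFP plates of EP14 and EP17, 3 of 335 and 1 of 190 wells passed.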

How the results depend on the processing

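Against E12.5, genes called (higher) numbered 602 (510). They were 1487 (1083) with no filter on low counts, 334 (282) in purer cells, those with fewer than 3 markers of every other cell type (20 of 124 members), 243 (211) with cells thinned to 2000 transcripts and 325 (290) without cells with 3 or more pericyte and smooth muscle markers. With 1 plate left out they ranged from 240 (205, without EP11) to 754 (611, without EP10). Against E13.5 to E15.5, 252 (229) became 559 (501) with 5 stages, 832 (663) with a slope per day, 847 (680) with no filter, 116 (108) in the purer cells (EP12 and EP14 only, since EP10 kept 9), 97 (92) thinned and 131 (119) with few pericyte markers, and 56 (53, without EP14) to 336 (300, without EP10) with 1 plate left out. The cause was not tested, though several of these settings hold fewer cells or genes. DESeq2 called 695 (540) and 285 (231). No gene called under both the reported fit and an alternative changed direction. Without thinning, Dcn was found in 97.58% and Lum in 85.48% of members. Log2 differences from E12.5 that changed sign belonged to genes that were not called. Gas1 was −0.216 with few pericyte markers. Rpl13 was −0.004 with upper-quartile scaling, −0.017 in the purer cells and −0.016 without wells above 5 times the median. Rpl41 was 0.045 with the slope, 0.008 thinned and 0.022 with few pericyte markers. Tpm1 was 0.204 in the purer cells, 0.184 thinned, 0.038 without immune-marked cells and 0.124 with endocrine and acinar lists left out of the purity rule. With 1 plate left out, the ranges ran from −0.721 to 0.324 (Hoxa3), −0.236 to 0.301 (Rpl13), −0.428 to 0.358 (Rpl41) and −0.171 to 0.061 (Tpm1), each lowest without EP11 and highest without EP18. Of 1856 values for 110 named genes, 1647 kept direction and side of the threshold, 184 lost and 10 gained the call. The settings on immune, endocrine and pericyte markers were chosen after seeing the data. Some planned settings gave no value: the second E18.5 plate had 1 gated cell, the authors' smaller table held no member, and a collagen gate of 1% left too few E12.5 cells. No paired analysis was possible because the libraries of a plate are pooled under 1 name and plates share no number across stages. E18.5 rests on 1 plate, and depth limits genes of few transcripts.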
